A study of Mus musculus with 4 samples.

Results

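The genes described here encode nuclear subunits of the mitochondrial respiratory chain and of ATP synthase. They were chosen by name alone, as every row of the deposited single-cell count table whose symbol begins with Ndufa, Ndufb, Ndufc, Ndufs or Ndufv and a digit, is one of the 4 Sdh genes, or begins with Uqcr, with Cox4 to Cox8, or with Atp5. The rule found 82 of the 17252 genes: 35 of complex I, 4 of complex II, 8 of complex III, 15 of complex IV and 15 of complex V, with Ndufa4 counted under complex IV because its protein is a subunit of cytochrome c oxidase. The remaining 5 (Cox7a2l, Atp5sl, Atp5s, Ndufa4l2 and the pseudogene Atp5l-ps1) share the names without being settled subunits. Subunit genes with other names, such as Cyc1, Ndufab1 and Usmg5, are not among the members.

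Complexes I to IV pass electrons from NADH and succinate to oxygen. Complexes I, III and IV also pump protons out of the mitochondrial matrix, and complex V uses the returning protons to make ATP. All but complex II combine subunits from the mitochondrial genome with many more encoded in the nucleus. Activated T cells and dividing B cells are known for building more mitochondria, while mature neutrophils keep few and live mainly from glycolysis, and erythroid precursors need mitochondria to make haem until they discard them.

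The spleens came from BALB/c mice given 10000 cells of BCL1, a transplantable mouse B cell lymphoma, and were digested with Liberase on day 13 for Drop-seq, in which single cells are captured in droplets with barcoded beads and each captured mRNA molecule is counted once by its unique molecular identifier (UMI). The 4 libraries were from mice given isotype control, anti-CD20 on day 4, anti-CD27 on days 5 to 8, or the combination of both antibodies, and all 4 therefore carried the tumor. Cells named PBS in the table were taken as the isotype control, and the study's single-cell methods give earlier treatment days than the labels used here. Each treatment was 1 library, the number of mice behind it was not given in the sources used here, and no difference between treatments has a replicate check.

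Cells were barcodes with 300 to 3000 detected genes: 340 in the isotype control, 501 after anti-CD20, 497 after anti-CD27 and 432 after the combination, 1770 of 3198 barcodes in all. The libraries held 440710, 939565, 908930 and 917486 UMIs in these cells, with median UMIs per cell of 1031, 1379, 1209 and 1395.5, and no barcode occurred in more than 1 library. Within libraries, 52 pairs of barcodes differed by 1 base, involving 37 cells as the shallower of a pair, and the barcodes of 273 cells ended in N, so some cells may not be distinct. Clusters were named from marker genes, with the suffix "-like". The combination library held 1 B-like and 1 germinal center B-like cell, whereas the anti-CD20 library still held 100 and 124, although anti-CD20 is directed at B cells; the isotype control held 172 and 48 and the anti-CD27 library 178 and 9. Whether lymphoma cells were among the B cell classes was not tested.

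Together the members gave 63385 of 3206690 UMIs, or 1.98%. Counts at the 3′ end of transcripts do not grow with transcript length, so levels below are CPM (the percent of UMIs times 10000) or percent of UMIs, not divided by length. A UMI was seen for 81 members, and Ndufa4l2 was listed at 0 in every cell kept. The spread among members was wide: 62 had at least 400 UMIs, 11 had 100 to 400 and 9 had fewer than 100, and the 12 most abundant held 34.2% of all member UMIs.

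Complex IV led these 12. Cox4i1, the largest nuclear subunit of cytochrome c oxidase, was the most abundant member with 2881 UMIs, found in 1057 cells and ranked 108 among all genes. It measured 783 CPM in the isotype control, 899 after anti-CD20, 865 after anti-CD27 and 986 after the combination. The combination was thus highest and the isotype control lowest for this gene. Cox6c with 2120 UMIs and Cox8a with 2011, both small membrane subunits, came next, followed by Atp5e, the epsilon subunit of ATP synthase, with 1864. Cox6b1 (1750), Cox6a1 (1717), Atp5j2 (1641), Cox7b (1632), Ndufa4 (1594), Uqcrh (1510), Atp5b (1489) and Atp5h (1475 UMIs) completed the list. Among these 12, only Uqcrh, the hinge protein of complex III, was highest in the isotype control, at 508 CPM against 478, 460 and 457 in the anti-CD20, anti-CD27 and combination libraries, while Atp5b, the catalytic beta subunit of ATP synthase, was, like Cox6c, Ndufa4 and Atp5h, highest after anti-CD27, at 543 CPM against 486, 402 and 439 in the isotype control, anti-CD20 and combination libraries.

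The 4 subunits of complex II, which is also the succinate dehydrogenase of the TCA cycle, had 231 to 669 UMIs, all below these 12. Sdhb, the iron-sulfur subunit, was the highest of them and measured 238, 209, 217 and 186 CPM in the isotype control, anti-CD20 alone, anti-CD27 alone and combination libraries. Sdha, the flavoprotein, measured 129, 101, 122 and 76.3 CPM in the same order. The membrane anchor Sdhd went the other way, with 111, 103, 138 and 170 CPM, and the second anchor Sdhc stayed between 63.5 and 79.6 CPM.

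Several subunits exist as tissue isoforms, and in the spleen the widely expressed form held nearly all UMIs of each Cox pair compared. Cox4i2 had 6 UMIs against 2881 for Cox4i1, Cox6a2 had 12 against 1717 for Cox6a1, Cox6b2 had 50 against 1750 for Cox6b1, and Cox7a1 had 7 against 1429 for Cox7a2. Among the 3 genes for subunit c of the ATP synthase ring, Atp5g3 had 929 UMIs, Atp5g1 68 and Atp5g2 12. Of the 3′ end stretches searched below, 36.0% for Atp5g1 and 55.5% for Atp5g2 occurred in other genes and none for Atp5g3, so this split is uncertain. By library, in the order above, Atp5g3 measured 279, 279, 276 and 319 CPM and Atp5g1 34.0, 22.4, 20.9 and 14.2 CPM. Cox8b and Cox8c were not analysed here.

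The rare isoforms were not spread evenly over cells. Cox6b2, known as the testis form, had 28 of its 50 UMIs in 22 of the 88 erythroid-like cells, which is 101 CPM (67.1 to 146, exact Poisson 95% interval, counting error only, as for all intervals here); it was at 0 in the 451 B-like cells, where 3 UMIs, the limit that a count of 0 allows, would be 5.0 CPM. Cox6a2, the form of heart and skeletal muscle, had 5 of its 12 UMIs in 3 of the 6 cells of an unnamed cluster led by Siglech, Klk1 and Cox6a2 itself, and 6 more in a single B-like cell. Cox4i2 had 5 of its 6 UMIs in 2 plasma-like cells. Cox7a1 and Atp5g2 were never seen with more than 1 UMI in a cell.

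Some members, at low and at high counts, share sequence near the 3′ end with other genes. Of the 50-base stretches in the last 300 bases of each member's GENCODE vM21 transcripts, none occurred in transcripts of another gene for 52 members, but 70.1% did for Atp5l (257 UMIs), 65.2% for Cox7c (500 UMIs) and 55.5% for Atp5g2 (12 UMIs), in each case foremost with a Gm-numbered gene model. Atp5h, with 59.2% shared, still had 1475 UMIs, while Cox6b2 (50 UMIs), Cox6a2 (12), Cox7a1 (7) and Cox4i2 (6) shared none. The part of shared sequence in these counts was not tested, and counts of such members are uncertain.

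Promoters of these genes are known targets of the nuclear respiratory factor NRF-1, of ETS family factors such as GABPA (NRF-2) and of YY1, so the letters of these and 3 common elements were searched on both strands of RefSeq windows from 250 bases before to 50 after the start site, on GRCm38.p6. The table held 73 windows for 67 of the 82 members. The palindromic NRF-1 core, printed in capitals in the sequences below, was in 6.85% of the member windows, in 0.971% of all 32851 windows and in 3.12% of the 1314 windows of 1028 other genes with at least 400 UMIs. For the YY1 letters AAGATGGC the shares were 16.4%, 2.75% and 5.25%, and for the ETS letters CCGGAAG 21.9%, 8.86% and 19.2%. The cAMP response element TGACGTCA was in 5.48%, 1.79% and 2.82%, and TATAAA in 8.22%, 13.6% and 9.74%. GGGCGG, the Sp1 core, was in 38.4% of member windows, 35.7% of all windows and 61.6% of those of the other abundant genes.

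The windows below show the NRF-1 letters in capitals in 4 promoters upstream of the start site, 60 bases each, because they belong to members at opposite ends of the abundance range; a pair with the ETS letters (here on the other strand, CTTCCGG) follows for an abundant subunit of complex IV and one of complex III.
Cox6a1, chr5:115349086-115349145, minus strand: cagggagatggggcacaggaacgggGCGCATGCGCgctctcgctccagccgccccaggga
Atp5k, chr5:108434415-108434474, minus strand: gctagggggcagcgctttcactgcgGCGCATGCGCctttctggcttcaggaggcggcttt
Ndufa11, chr17:56717677-56717736, plus strand: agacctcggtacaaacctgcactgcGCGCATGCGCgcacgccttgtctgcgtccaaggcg
Atp5g2, chr15:102671055-102671114, minus strand: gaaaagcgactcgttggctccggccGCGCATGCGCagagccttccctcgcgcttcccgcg
Cox6b1, chr7:30626115-30626174, minus strand: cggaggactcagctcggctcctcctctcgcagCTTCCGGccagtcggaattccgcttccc
Uqcrh, chr4:116075071-116075130, minus strand: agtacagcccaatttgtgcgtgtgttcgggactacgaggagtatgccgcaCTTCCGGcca
The same 10 letters thus stood before Cox6a1 with 1717 UMIs, Atp5k with 1033, Ndufa11 with 484 and Atp5g2 with 12. The count of Atp5g2 is uncertain, since it shares 3′ end sequence with other genes. A match of letters is a description of the window and not a measured binding site.

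Cell classes differed more than libraries did. Over the 4 libraries together, the summed members took 2.63% of UMIs in effector CD8 T-like cells, 2.52% in erythroid-like, 2.29% in macrophage/monocyte-like, 2.25% in germinal center B-like, 2.11% in dendritic-like, 2.01% in NK-like, 1.83% in T-like, 1.70% in B-like, 1.16% in plasma-like and 0.978% in granulocyte-like cells. The counting intervals of effector CD8 T-like (2.58 to 2.69%) and erythroid-like cells (2.46 to 2.58%) met at their ends. Those of macrophage/monocyte-like (2.24 to 2.34%) and germinal center B-like cells (2.20 to 2.29%) overlapped, as did those of dendritic-like (2.04 to 2.19%) and NK-like cells (1.90 to 2.12%). Overlap alone does not show that such neighbours are equal, and their ratios were not taken. The members were left out of the variable genes used for clustering, while proliferation and haemoglobin genes could be among them. No test was made between classes. Single cells spread widely within a class: the middle 50% ran from 1.25 to 1.97% in B-like, from 1.79 to 2.92% in effector CD8 T-like and from 0.401 to 1.08% in granulocyte-like cells.

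**Figure D1:**
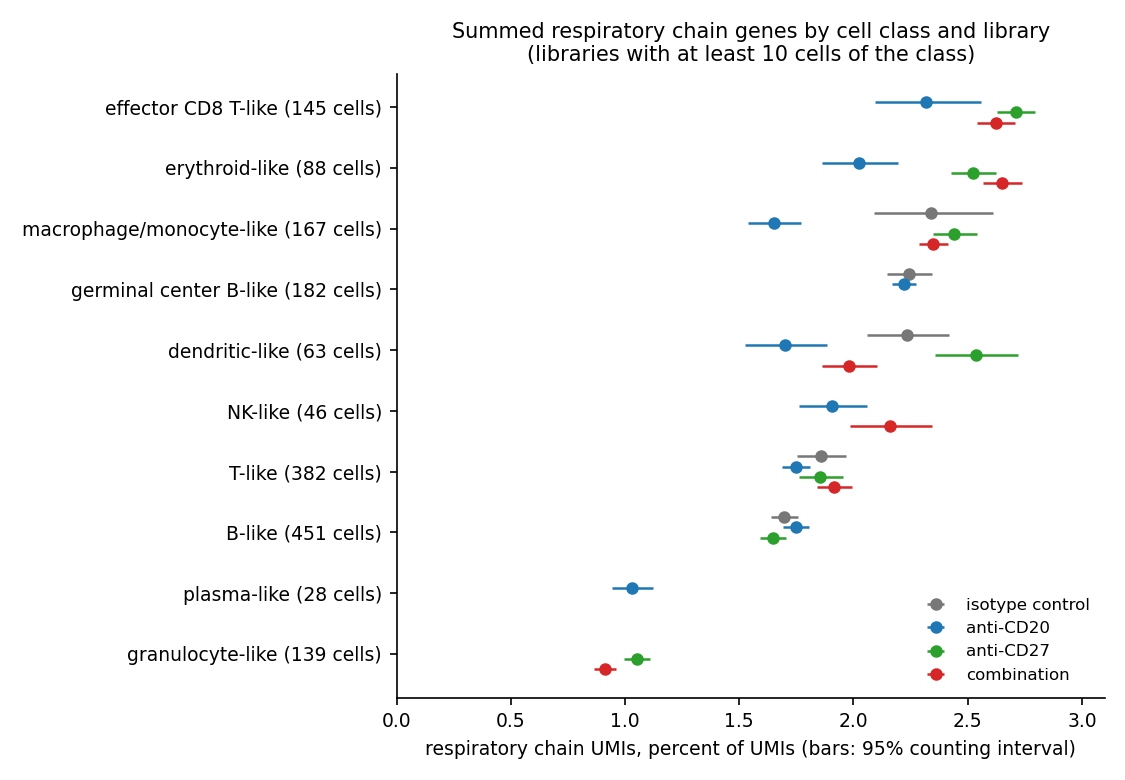
Summed respiratory chain UMIs as percent of all UMIs (horizontal axis) for 10 cell classes (rows, with cells in all libraries) and the 4 libraries (colors) with at least 10 cells of the class; bars are 95% Poisson counting intervals. Granulocyte-like cells lie near 1%, B-like and T-like cells between 1.6 and 2.0%, and the 3 effector CD8 T-like points between 2.32 and 2.71%, and the anti-CD20 points of macrophage/monocyte-like, dendritic-like and erythroid-like cells lie left of the others.

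Erythroid-like cells also carried haemoglobin transcripts at 15.4% of UMIs, and with haemoglobin left out of the total their share rose from 2.52 to 2.98%, above that of effector CD8 T-like cells. When every cell was thinned to 400 UMIs, leaving out shallower cells (at most 5 per class), the mean number of members detected per cell was 8.86 in erythroid-like, 8.21 in effector CD8 T-like, 8.16 in macrophage/monocyte-like, 7.73 in germinal center B-like, 6.53 in T-like, 6.04 in plasma-like, 5.88 in B-like and 2.74 in granulocyte-like cells. Without thinning, the same means were 32.5, 27.4, 27.7, 28.3, 15.3, 25.2, 15.6 and 12.9. Plasma-like cells thus lay below B-like cells in percent of UMIs. At 400 UMIs the means of these 2 classes were close, and the medians were 5.5 in plasma-like and 6.0 in B-like cells.

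The pattern over classes was shared by most members, as the heat map of the 62 members with at least 400 UMIs shows. Of these, 44 were highest in erythroid-like (23) or effector CD8 T-like cells (21), and 60 were lowest in granulocyte-like (39) or plasma-like cells (21). Among all 1450 genes with at least 400 UMIs, 13.9% were highest in erythroid-like and 10.6% in effector CD8 T-like cells, and 37.7% and 38.2% were lowest in granulocyte-like and plasma-like cells. The members lowest in plasma-like cells were thus no larger a share than among all genes, unlike those lowest in granulocyte-like cells. By complex, 7 of the 8 complex III genes were highest in erythroid-like cells, whereas complex IV had 5 of 11 highest in effector CD8 T-like and 1 in erythroid-like cells. A member's highest class was 3.56 times its lowest at the median, from 1.69 times for Ndufa3 upward.

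**Figure D2:**
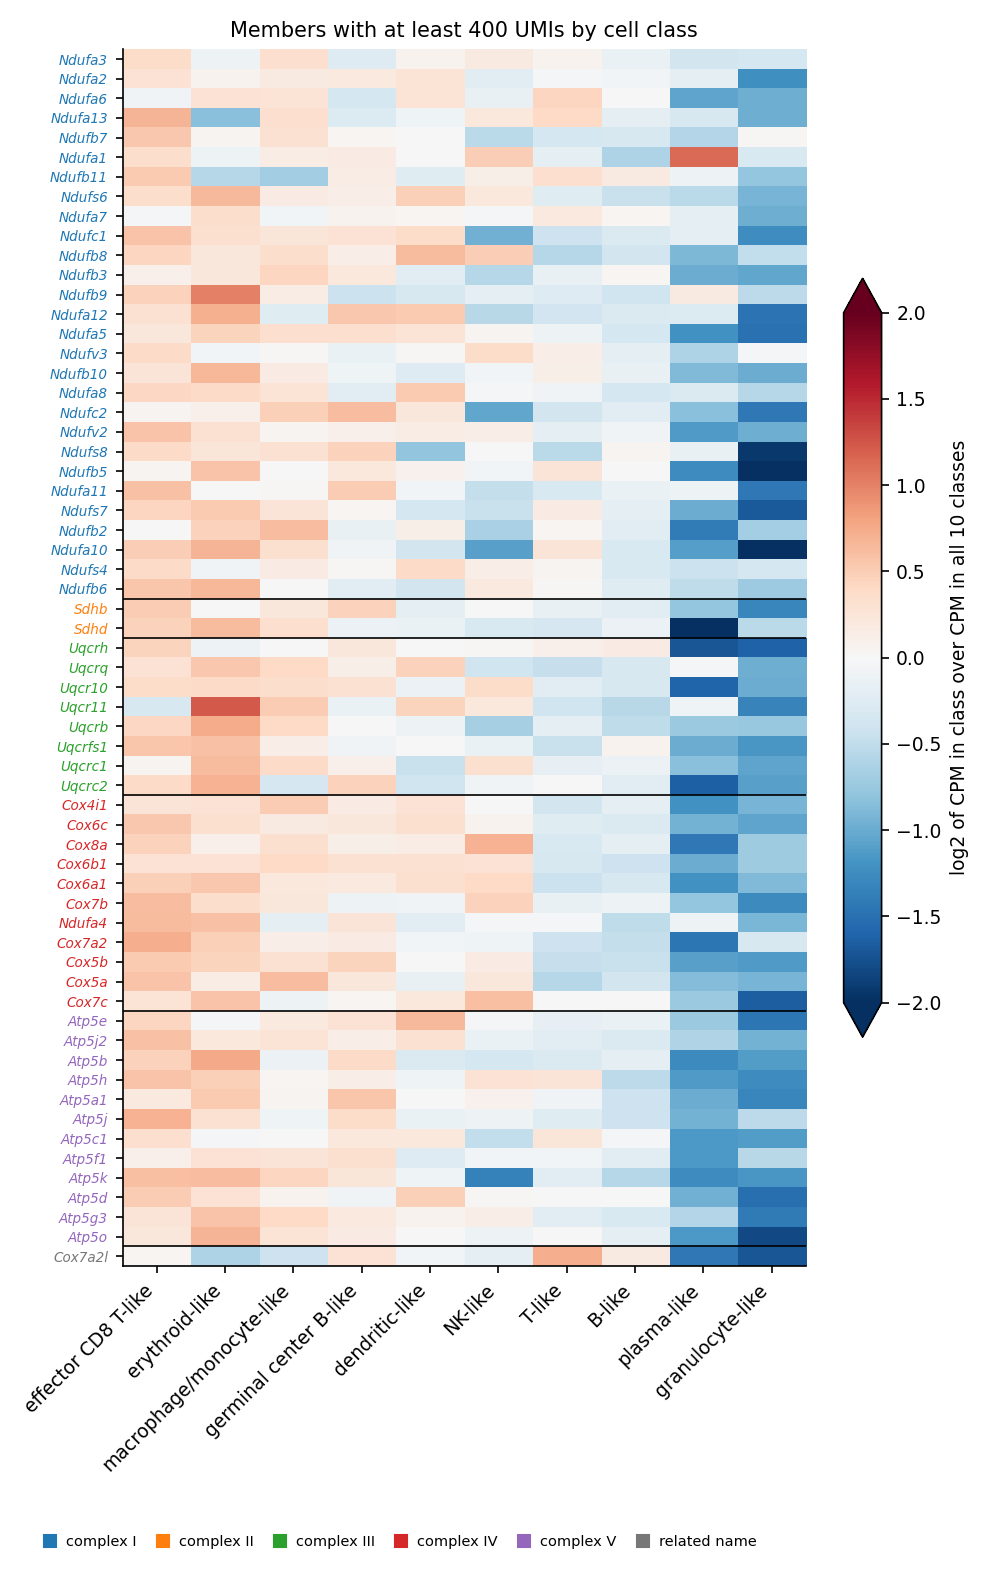
Each row is a member with at least 400 UMIs, grouped by complex, and each column a cell class; color gives the log2 of the member's CPM in the class over its CPM in the 10 classes together, with 10 CPM added to both. The 2 right-hand columns, plasma-like and granulocyte-like, are blue for most members and the effector CD8 T-like column is red for most, with Ndufa1 in plasma-like cells and Uqcr11 in erythroid-like cells standing out from their columns or rows.

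Some members departed from the common pattern. Uqcr11, a small subunit of complex III, measured 534 CPM in erythroid-like cells and 317 CPM in macrophage/monocyte-like cells, the next class, but only 176 CPM in effector CD8 T-like cells. Ndufa1, an X-linked accessory subunit of complex I, was highest in plasma-like cells, with 644 CPM from 65 UMIs, although the summed members were low there. Cox7a2l, which promotes the joining of complexes III and IV into supercomplexes, was highest in T-like cells at 612 CPM and measured 375 CPM in effector CD8 T-like cells. Atp5sl, whose protein (now named Dmac2) takes part in the assembly of complex I, had 86 of its 174 UMIs in B-like cells, at 143 CPM, and measured 56.5 CPM in germinal center B-like cells, the next highest class.

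Across treatments the whole libraries differed little. The members took 1.87% of UMIs in the isotype control (1.83 to 1.92%), 1.89% after anti-CD20 (1.86 to 1.92%), 2.02% after anti-CD27 (1.99 to 2.05%) and 2.08% after the combination (2.05 to 2.11%). Both libraries with anti-CD27 were thus above both without it, and the intervals of the isotype control and anti-CD20 overlapped. By the median cell this order was not seen, at 1.75, 1.81, 1.77 and 1.84%. In barcodes with under 300 genes, where haemoglobin took 45.2 to 69.3% of UMIs, the members made up 0.375 to 0.804%.

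The combination was compared with anti-CD20 to ask what anti-CD27 added to it, and anti-CD27 with the isotype control to ask what it did alone. Combination over anti-CD20 gave a log2 ratio of 0.14 (0.11 to 0.17, exact conditional 95% interval), and anti-CD27 over the isotype control 0.11 (0.07 to 0.14). Among cells of 800 to 2000 UMIs alone, where the median depths were 1188 and 1277.5 in the first pair, both ratios changed sign, to -0.06 (-0.12 to 0.00) and -0.10 (-0.16 to -0.03). The libraries also differ in which cells they hold, and the parts of depth and cell makeup in the whole-library ratios were not tested apart from the comparisons within classes below.

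In combination over anti-CD20, 5 of the 75 members with at least 30 UMIs were at least 1.5-fold higher and 2 at least 1.5-fold lower, against 17.1% and 19.9% of all 7572 genes measured at that depth. The shares over all genes, here and below, were not matched for abundance. At least 400 UMIs were held by 62 of the 82 members but by 1450 of all 17252 genes, and low counts pass 1.5-fold more often by counting error. Of the 75, 51 were above 1, against 44.4% of all genes. Complexes III and IV had ratios of 0.26 and 0.22, and complexes I and V 0.09 and 0.11. The intervals of 17 members lay above no change and those of 2 below, against 16.6% and 19.6% of all genes. Named here and in the comparisons that follow are up to 5 members in each direction with the largest ratios among those whose interval excluded no change. Uqcrfs1, the Rieske iron-sulfur protein of complex III, measured 161, 109, 206 and 191 CPM in the isotype control, anti-CD20 alone, anti-CD27 alone and combination libraries, a ratio of 0.81 (0.45 to 1.18) on the log2 scale. Its anti-CD20 library was the lowest, though its counting interval met that of the isotype control. Sdhd had a ratio of 0.72 (0.34 to 1.10). Cox7a2, a small subunit of complex IV, measured 386, 345, 465 and 558 CPM in the same order, with a ratio of 0.69 (0.49 to 0.90), so that both libraries with anti-CD27 exceeded both without it, though the intervals of the isotype control and anti-CD27 overlapped. Uqcr11 (0.59) and Ndufb6, an accessory subunit of complex I (0.50), were also higher. Cox7a2l was lower, at 319 against 418 CPM, a ratio of -0.39 (-0.61 to -0.17). Atp5sl was lower still, at 19.6 against 64.9 CPM and a ratio of -1.73 (-2.57 to -0.95), and the combination library held 1 B-like cell.

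In anti-CD27 over the isotype control, 1 of 74 members was at least 1.5-fold higher and 2 at least 1.5-fold lower, against 14.3% and 19.1% of all 6612 genes. The intervals of 12 members lay above no change and those of 2 below, against 10.9% and 16.8% of genes. The member past 1.5-fold was Ndufb9, an accessory subunit of complex I, which measured 143, 153, 238 and 210 CPM over the 4 libraries, a ratio of 0.73 (0.32 to 1.16). Ndufs6, Atp5k, Ndufb7 and Ndufb8 followed with ratios of 0.45, 0.44, 0.43 and 0.38. Atp5l, at 66.0 against 109 CPM, and Ndufc2, at 146 against 195 CPM, were lower, with ratios of -0.72 and -0.42.

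The 8 rows of mitochondrially encoded subunits did not follow the nuclear ones. They took 1.57, 1.12, 1.09 and 0.749% of UMIs in the isotype control, anti-CD20 alone, anti-CD27 alone and combination libraries, and the ratio of combination over anti-CD20 was -0.58, with 3 of 7 genes at least 1.5-fold lower and none higher. They were low in macrophage/monocyte-like and granulocyte-like cells (0.504 and 0.275%) and high in B-like cells (1.61%), so that the mitochondrial UMIs per nuclear member UMI fell from 0.951 in B-like to 0.220 in macrophage/monocyte-like cells. Within T-like cells they measured 1.55, 1.31, 1.53 and 1.05%, so combination over anti-CD20 was -0.31 (-0.41 to -0.21) there while anti-CD27 over the isotype control was -0.01 (-0.14 to 0.11). Combination over anti-CD20 was 0.14 (-0.08 to 0.36) in macrophage/monocyte-like and -0.06 (-0.27 to 0.15) in effector CD8 T-like cells. The cytosolic ribosomal protein genes took 8.91, 8.87, 7.63 and 6.33% of the 4 libraries, and within T-like cells combination over anti-CD20 was 0.04 (0.01 to 0.07) for them.

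Other lists of the pathway were closer to the members or flat. In combination over anti-CD20, the assembly factors had a ratio of 0.08 with 2 of 30 genes at least 1.5-fold higher and 4 lower, carriers and partners such as cytochrome c and the adenine nucleotide translocases 0.14 with 1 of 12 higher and 1 lower, and the TCA cycle -0.03 with 1 of 16 higher and 2 lower. The list of carriers and partners also holds the subunit genes Cyc1, Ndufab1 and Usmg5, so its values are in part those of further subunits. The mitochondrial ribosomal proteins had a ratio of -0.05 and the 13 regulators, among them Nrf1, Gabpa and Tfam, -0.19, with none of the 9 measured regulators past 1.5-fold. Glycolysis differed more, at 0.51, with 4 of 15 genes higher and none lower, and proliferation genes stood at 0.14 with 4 of 22 higher and 2 lower. Of all genes, 17.1% were at least 1.5-fold higher and 19.9% lower. Within classes the glycolysis ratio was 0.09 (-0.17 to 0.35) in T-like, 0.38 (-0.12 to 0.92) in effector CD8 T-like and 0.50 (0.16 to 0.86) in macrophage/monocyte-like cells. Over the 28 pairs of class and library, which share their libraries and totals, the summed members correlated with assembly factors at a Pearson r of 0.86, with mitochondrial ribosomal proteins at 0.86, with carriers at 0.82, with the TCA cycle at 0.69, with proliferation at 0.55, with regulators at 0.28, with mitochondrially encoded genes at 0.25 and with glycolysis at 0.10, given here as a description. Without the 2 granulocyte-like points, r was 0.58 for glycolysis, -0.00 for mitochondrially encoded genes, 0.08 for regulators and 0.78, 0.77 and 0.76 for assembly factors, mitochondrial ribosomal proteins and carriers, so the low value of glycolysis rested on those points.

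Within T-like cells the members took 1.86, 1.75, 1.86 and 1.92% of UMIs over the 4 libraries. Combination over anti-CD20, with 107 and 147 cells, gave a ratio of 0.13 (0.05 to 0.21) and 0.11 among cells of 800 to 2000 UMIs. Of 65 members, 7 were at least 1.5-fold higher and 1 lower, against 12.3% and 13.0% of 1958 genes. The intervals of 5 members lay above no change and 0 below, against 6.54% and 5.87% of genes. Uqcrfs1 was again among the higher ones, with 24 against 10 UMIs and a ratio of 1.79 (0.67 to 3.02), as were Ndufa5 of complex I (0.93), Ndufa4 (0.66), Atp5c1, the gamma subunit of ATP synthase (0.53), and Cox6c (0.47).

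In T-like cells, anti-CD27 alone and the isotype control did not differ beyond counting error, with 1.86% in both (72 and 56 cells) and an interval of the log2 ratio from -0.12 to 0.11. With cells assigned by their own markers in place of clusters, the same ratio was 0.36. Of 34 members measured, 2 were at least 1.5-fold higher and 0 lower, against 14.4% and 15.4% of 810 genes, and the interval of 1 member, Cox6b1 (40 against 15 UMIs, a ratio of 1.06), excluded no change, against 5.43% of genes above and 6.67% below. That is no more than the background. B-like cells likewise gave 1.65% after anti-CD27 (178 cells) and 1.70% in the isotype control (172 cells), a ratio of -0.04 (-0.11 to 0.03). There, 1 of 67 members was at least 1.5-fold higher and 4 lower, against 9.64% and 14.9% of 2573 genes, and the interval of 1 member, Cox5a of complex IV (237 against 383 CPM, a ratio of -0.69), excluded no change, against 6.1% of genes above and 8.67% below, again no more than the background.

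Germinal center B-like cells exceeded B-like cells in both libraries that held enough of them. In the anti-CD20 library, 124 germinal center B-like cells gave 2.22% and 100 B-like cells 1.75%, a ratio of 0.34 (0.29 to 0.40), and in the isotype control 2.24 and 1.70%, a ratio of 0.40 (0.32 to 0.48). Median depths were 2251 and 1809.5 UMIs in the anti-CD20 library, and the ratio was as large among cells of 800 to 2000 UMIs, at 0.40 (0.27 to 0.53, 36 and 37 cells). Of 72 members, 23 were at least 1.5-fold higher and 2 lower, against 30.1% and 16.2% of 3334 genes. The intervals of 26 members lay above no change and that of 1 below, against 23.6% and 13.4% of genes. The share of members past 1.5-fold was thus near that of all genes, but 58 of 72 were above 1 against 58.8% of all genes, and the median log2 ratio was 0.30 for members and 0.17 for all genes.

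All 5 complexes were higher in germinal center B-like cells, from 0.25 for complex I to 0.42 for complex V on the log2 scale, though the interval of complex II (-0.02 to 0.74) included no change. Uqcrc2, a core protein of complex III, was higher, at 187 against 77.4 CPM (1.27, 0.46 to 2.17), with Ndufa12 (1.26), Uqcrb (0.97), Ndufa1 (0.94) and Ndufa5 (0.90) next. Ndufa6, an accessory subunit of complex I, was lower, at 212 against 348 CPM (-0.71, -1.22 to -0.21). All 22 proliferation genes were at least 1.5-fold higher in the same cells, mitochondrial ribosomal proteins had 12 of 46 higher and 1 lower, and the mitochondrially encoded genes were lower, with a ratio of -0.22.

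**Figure D3:**
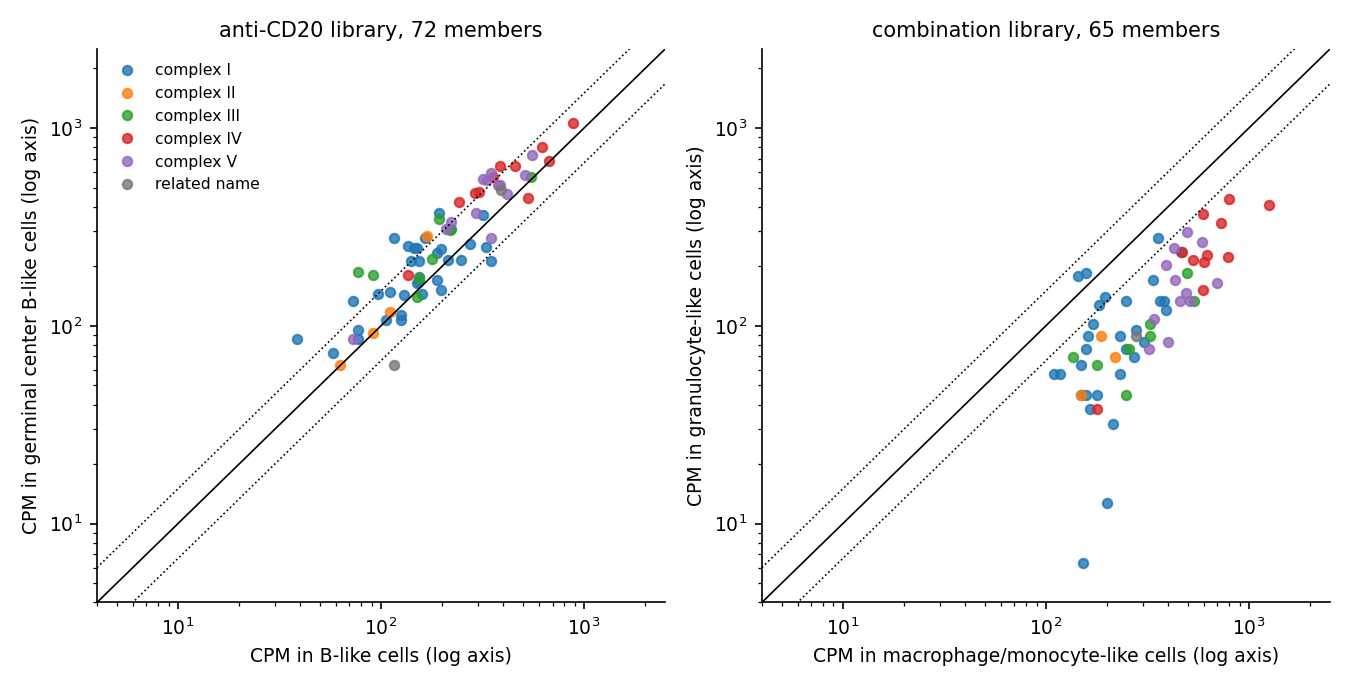
Each point is a member with at least 30 UMIs in the 2 classes together, colored by complex, with its CPM in one class against its CPM in another on log axes; the solid line marks equal levels and dotted lines 1.5-fold. On the left, 58 of 72 members lie above the line of equal levels for germinal center B-like against B-like cells; on the right, 60 of 65 lie at least 1.5-fold below the line of equal levels for granulocyte-like against macrophage/monocyte-like cells.

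Effector CD8 T-like cells were led by Gzmk, Gzmb, Ccl3, Ccl4 and Pdcd1 and the cells counted 3, 14, 65 and 63 in the isotype control, anti-CD20 alone, anti-CD27 alone and combination libraries. In the combination they gave 2.62% and T-like cells 1.92%, a ratio of 0.45 (0.38 to 0.53), and the ratio was 0.41 in the anti-CD20 and 0.55 in the anti-CD27 library. Complex IV had the largest difference, at 0.77 (0.63 to 0.91), against 0.30 (0.17 to 0.44) for complex I. Of 63 members, 21 were at least 1.5-fold higher and 1 lower, against 27.8% and 21.3% of 1826 genes. The intervals of 19 members lay above no change and that of 1 below, against 20.6% and 16.5% of genes. Cox5a, at 614 against 225 CPM (1.45, 0.82 to 2.11), Ndufc1 (1.43), Cox7a2 (1.30), Uqcr10 (1.29) and Cox5b (1.19) were higher, and Cox7a2l, at 381 against 587 CPM, was lower (-0.62, -1.15 to -0.11).

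The difference varied with the depth of the cells compared. Among cells of 800 to 2000 UMIs in the combination, 19 effector CD8 T-like cells gave 1.87% and 57 T-like cells 1.85%, a ratio of 0.02 (-0.14 to 0.17). Thinned to 400 UMIs, the cells of the combination had a mean of 8.29 members in effector CD8 T-like and 6.73 in T-like cells. Over all libraries, effector CD8 T-like cells measured 2.21% under 800 UMIs, 1.89% at 800 to 2000 and 2.84% above 2000 UMIs (37, 46 and 62 cells), and T-like cells 1.76, 1.77 and 2.08% (128, 221 and 33 cells), so the effector cells were higher in the shallow and the deep range and close to T-like cells between them. The proliferation genes were at 0.842% of UMIs in the effector and 0.116% in the T-like cells of the combination, and their part in the difference was not tested.

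**Figure D4:**
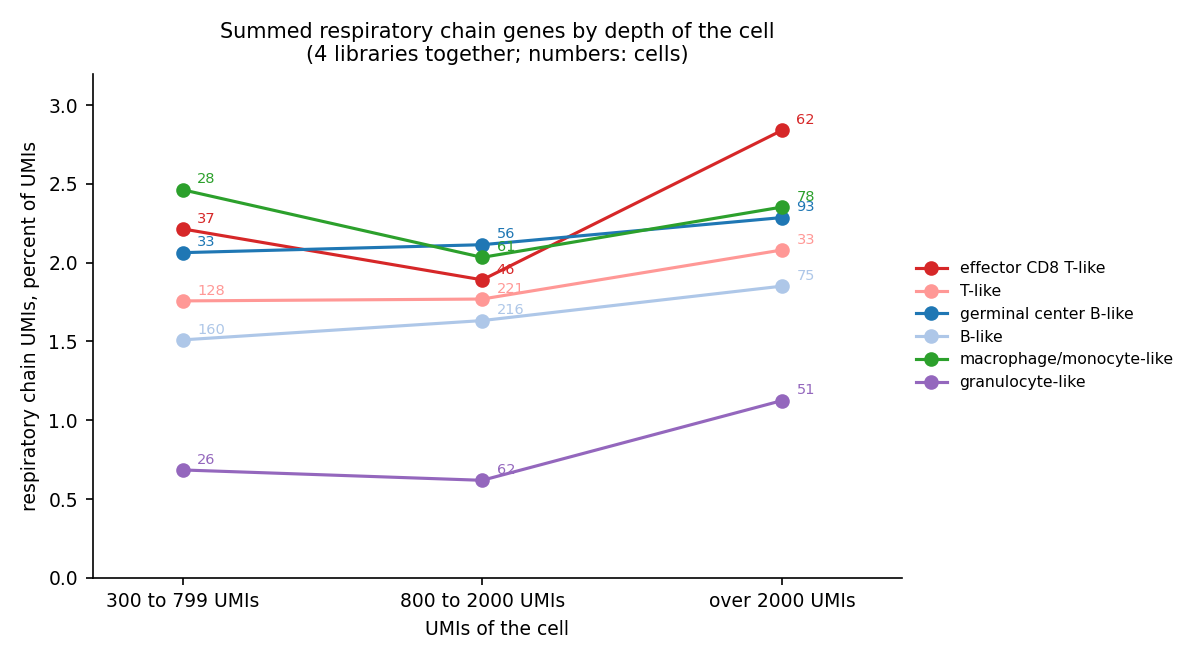
Summed respiratory chain UMIs as percent of all UMIs (vertical axis) in cells of 3 depth ranges (horizontal axis), for 6 classes over the 4 libraries together; numbers beside points are cells. Effector CD8 T-like cells stand above T-like cells under 800 and above 2000 UMIs but are close to them at 800 to 2000, whereas germinal center B-like cells are above B-like cells and granulocyte-like cells far below macrophage/monocyte-like cells in all 3 ranges.

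Within effector CD8 T-like cells, the combination (63 cells) over anti-CD20 (14 cells) gave a ratio of 0.18 (0.03 to 0.33), and the combination and anti-CD27 libraries measured 2.62 and 2.71%. The ratio was 0.45 with no upper limit on detected genes, 0.79 with TMM factors and 0.37 without the 5 deepest cells of each group. Median depth was 1757 against 1002.5 UMIs, and the proliferation list had a ratio of 2.53 with 13 of 14 genes at least 1.5-fold higher; their part in the result was not tested. Of 53 members, 16 were at least 1.5-fold higher and 5 lower, against 33.1% and 19.0% of 1044 genes, so members were close to the background. The intervals of 3 members lay above no change and 0 below, against 8.52% and 6.8% of genes. Ndufc1 had 55 UMIs against 0, at least 2.10-fold higher when the anti-CD20 side is put at 3 UMIs. Atp5c1 (78 against 2 UMIs) and Cox7a2 (136 against 4 UMIs) were the other 2 of these, with ratios of 2.16 (0.26 to 5.23) and 1.96 (0.57 to 3.86).

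Macrophage/monocyte-like cells had the largest summed ratio of the comparisons between treatments made here. They measured 2.34% in the isotype control (12 cells), 1.65% after anti-CD20 (22 cells), 2.44% after anti-CD27 (45 cells) and 2.35% after the combination (88 cells), so the anti-CD20 library was the low one and the other 3 overlapped in their intervals. Combination over anti-CD20 was 0.51 (0.40 to 0.62). Of 66 members, 27 were at least 1.5-fold higher and 1 lower, against 34.1% and 13.1% of 1808 genes, and the median was 0.50 for members and 0.23 for all genes. The intervals of 13 members lay above no change and 0 below, against 14.4% and 6.86% of genes. Uqcrb (57 against 2 UMIs, 2.58), Cox5b (121 against 6 UMIs, 2.08), Atp5k (117 against 6 UMIs, 2.03), Cox7a2 (136 against 7 UMIs, 2.02) and Uqcrq (113 against 6 UMIs, 1.98) were the 5 largest ratios among members whose intervals excluded no change.

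The macrophage/monocyte-like cells of the anti-CD20 library differed from the others in more than these genes. Haemoglobin took 8.68% of their UMIs, against 0.263, 0.111 and 0.240% in the isotype control, anti-CD27 and combination libraries, and without haemoglobin, mitochondrial and immunoglobulin genes in the total the ratio fell to 0.38. They were also divided otherwise between the 2 clusters of the class. Cluster 4, led by Msr1, Cxcl9 and F13a1, held 10 of the anti-CD20 and 72 of the combination cells and measured 1.73 and 2.42%, with haemoglobin at 0.423 and 0.108%, a ratio of 0.48. Cluster 10, led by Fcna and Itgad with the C1q genes, held 12 and 16 cells and measured 1.60 and 1.89%, with haemoglobin at 14.5 and 1.15%. Dendritic-like cells were likewise lowest after anti-CD20, at 1.70% (11 cells) against 2.23, 2.53 and 1.98% in the isotype control, anti-CD27 and combination libraries. The anti-CD20 interval (1.53 to 1.89%) met that of the combination (1.86 to 2.10%), though the ratio of combination over anti-CD20 was 0.22 (0.05 to 0.40).

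Granulocyte-like cells had the lowest levels among classes of at least 10 cells in both libraries with at least 10 of them. In the combination, 72 granulocyte-like cells gave 0.911% and 88 macrophage/monocyte-like cells 2.35%, a ratio of -1.37 (-1.45 to -1.28), and in the anti-CD27 library the ratio was -1.22. The 2 clusters of the class were apart: cluster 6, led by mature neutrophil genes such as Cxcr2, Csf3r and Il1b, measured 0.50% (79 cells, median 951 UMIs), and cluster 8, with Camp, Ngp, Ltf and Elane of granule-forming precursors, 1.18% (60 cells, median 2993 UMIs). A UMI of the T cell genes Cd3d, Cd3e or Cd3g was found in 15.2% of cluster 6 and 40.0% of cluster 8 cells, and its source was not tested. In the anti-CD27 and combination libraries, cluster 6 measured 0.493 and 0.497% and cluster 8 1.27 and 1.10%, the latter without overlap of the intervals. The level of cluster 6 lay within the 0.375 to 0.804% found in barcodes with under 300 genes. The totals are not alike, since haemoglobin took 45.2 to 69.3% of UMIs in those barcodes and 0.570% in granulocyte-like cells. The part of free RNA in cluster 6 was not tested.

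None of 65 members was at least 1.5-fold higher in granulocyte-like than in macrophage/monocyte-like cells and 60 were at least 1.5-fold lower, against 16.1% and 55.4% of 2229 genes. The intervals of 55 lay below no change and 0 above, against 46.8% and 14.5% of genes. All 5 complexes were lower, from -1.24 (-1.39 to -1.09) for complex I to -1.72 (-2.01 to -1.43) for complex III. Ndufb5 with 1 against 35 UMIs (-4.59, -9.93 to -2.02) and Ndufs8, which carries iron-sulfur clusters, with 2 against 46 UMIs (-3.98, -7.07 to -2.05) were far lower, as were Ndufa5 (-2.75), Uqcrb (-2.48) and Atp5g3 (-2.28). The 2 members above 1 were Ndufb11, at 178 against 144 CPM, and Ndufv3, at 184 against 157 CPM, and both intervals included no change. Among the other lists, all 49 cytosolic ribosomal protein genes and 14 of 15 mitochondrial ribosomal protein genes were at least 1.5-fold lower, the carriers 9 of 9 and the TCA cycle 3 of 5, while glycolysis had 2 of 7 higher and 1 lower and a ratio of 0.27.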

How the data were processed

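The deposited table gives whole-number counts of UMIs per gene and cell for 4 Drop-seq libraries; per the submitters' processing notes and methods, the authors made reads with bcl2fastq, aligned them with STAR 2.5.0a to mm10 and counted molecules with Drop-seq tools. No sample columns were left out. Counts were summed over cells of a class and library, without a count model, since each treatment was 1 library. Levels carry exact Poisson and ratios exact conditional 95% intervals that cover counting error only; the ratio code was checked on simulated data. Genes counted as measured had at least 30 UMIs in both groups together, and 1.5-fold calls used CPM ratios as they were, while 10 CPM were added before medians of ratios. Cells were clustered with scanpy 1.11.5 and leidenalg 0.10.2 (2000 variable genes, 30 components, 15 neighbours, resolution 1), and a cluster was named from at least 3 markers among its top 30 genes; 72 cells stayed unnamed. Scrublet called 16 cells (0.904%) doublets, which were kept. TMM factors came from edgeR 4.0.16. Named in the text are the 12 most abundant members, fixed paralog sets, the Sdh genes and, per comparison, up to 5 members with the largest and 5 with the smallest ratio among those whose interval excluded no change; members that departed from the common pattern over classes were named after their values were seen. The members were chosen by name, and the other gene lists were chosen with earlier results of these data known. All 82 members matched RefSeq symbols or synonyms. Alternatives tried were other limits on detected genes, clusterings, marker-only classes, totals, TMM, means over cells, members and thresholds, and, chosen after seeing the data, single clusters, cells of 800 to 2000 UMIs and cells without the 5 deepest of each group.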

Additional observations from a re-analysis of the deposited data

Results flagged for a closer look

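Members also had UMIs in barcodes outside the cells compared, those with under 300 detected genes, at up to 0.804% of UMIs in the anti-CD27 library. There are no empty-droplet controls to set this against, and it was noted because it exceeds the limit that a count of 0 allows.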

How the results depend on the processing

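Each value is the log2 ratio of the summed members. Single clusters, cells of 800 to 2000 UMIs and leaving out the 5 deepest cells of each group were chosen after seeing the data, and the cause of each move was not tested. Combination over anti-CD20 in all cells (0.14) became 0.37 with no upper limit on detected genes, 0.0794 without haemoglobin, mitochondrial and immunoglobulin genes in the total, 0.10 without cytosolic ribosomal protein genes, 0.22 with TMM factors and 0.0393 as a mean over cells, and reversed to -0.0578 in cells of 800 to 2000 UMIs. Anti-CD27 over isotype control in all cells (0.11) became 0.27 with TMM factors and 0.0212 as a mean over cells, and reversed to -0.10 at 800 to 2000 UMIs. With cells assigned by their own markers, T-like cells gave 0.23 for combination over anti-CD20 and 0.36 for anti-CD27 over isotype control. B-like cells gave 0.0874 for anti-CD27 over isotype control with TMM factors. Macrophage/monocyte-like cells gave 0.21 with no upper limit, 0.38 without haemoglobin, mitochondrial and immunoglobulin genes, 0.80 with TMM factors, 0.40 as a mean over cells and 0.24 in cluster 10 alone. Effector CD8 T-like cells, combination over anti-CD20, gave 0.45 with no upper limit, 0.79 with TMM factors and 0.37 without the 5 deepest cells. Effector CD8 T-like over T-like cells gave 0.37 without cytosolic ribosomal protein genes, 0.35 as a mean over cells, 0.34 as a median over members and 0.0167 at 800 to 2000 UMIs. Germinal center B-like over B-like cells gave 0.45 from own markers and 0.41 without the 5 deepest cells. Granulocyte-like over macrophage/monocyte-like cells gave -1.06 with no upper limit, -1.24 at 500 to 3000 genes, -1.04 from own markers, -0.76 with TMM factors, -1.74 as a mean over cells, -1.46 as a median over members, -2.24 and -1.10 with cluster 6 or cluster 8 alone, -1.55 without the 5 deepest cells and -1.90 at 800 to 2000 UMIs. Own markers for effector CD8 T-like cells in combination over anti-CD20 (22 and 9 cells), and 800 to 2000 UMIs for that comparison (19 and 5 cells) and for macrophage/monocyte-like cells (29 and 9 cells), left too few cells and were not run. With 1 library per treatment, no library could be left out and no spread between mice is known.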
